A study of Homo sapiens with 12 samples.

Results

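Claudins are the membrane proteins that line up into the strands of the tight junction, the seal that holds neighbouring epithelial cells together near their apical surface. Some claudins, such as CLDN1, tighten the seal, while others, such as CLDN2, form pores that let small cations and water pass between cells. Occludin and the adhesion molecule JAM-A (gene F11R) sit in the same junction, and the cytoplasmic scaffold ZO-1 (gene TJP1) ties claudins and occludin to actin. Described here are 9 of these genes, CLDN1, CLDN2, CLDN3, CLDN4, CLDN7, CLDN12, OCLN, TJP1 and F11R, of 19973 genes listed in the expression table. They were taken by gene symbol, and they were picked with their levels in the 4 groups of these samples already known. Their levels and differences are therefore given as a description, with no test.

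The cells were H460 and A549, a pair of human non-small-cell lung cancer (NSCLC) lines, each labelled wild type. The paper on these cells states that both lines hold homozygous mutations that inactivate KEAP1, so the label does not mean free of mutations. Each line was either left without treatment (control) or given ISP-I, isovalerylspiramycin I, a component isolated from the macrolide antibiotic carrimycin, at 10 µM for 48 h. There were 3 libraries per group and 12 in all, each from 1 established line, and nothing in the labels says whether the 3 came from separate cultures, so the spread between them may be technical. Levels are FPKM, fragments scaled to the length of the gene and the reads on all genes in that library, so that levels of different genes can be set side by side. The libraries held 14225849 to 17874422 reads on genes. The numbers in the column names could not be matched to the replicate numbers of the labels, and libraries are numbered in the order of the columns for each group.

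Marker genes of cell types were checked first. The summed level of 6 epithelial markers (KRT7, KRT8, KRT18, KRT19, CDH1 and EPCAM) was 357.8 to 432.3 FPKM in H460 control libraries, 328.6 to 419.6 in H460 with ISP-I, 1436 to 1826 in A549 controls and 1252 to 1266 in A549 with ISP-I. All 6 had a mean of at least 1 FPKM in A549 controls and 4 of 6 did in H460 controls, where CDH1, the gene of E-cadherin, was listed at 0 in all 3 libraries. EPCAM was at 0.0473 FPKM on average in H460 controls. The sum there came mostly from KRT8, KRT19 and KRT18, at 194, 122 and 70.3 FPKM on average. The 6 alveolar markers, among them the surfactant genes, were all under 1 FPKM in each group. Of the 14 blood, endothelial and fibroblast markers, the summed levels were at most 6.43, 0.389 and 3.45 FPKM in any library, in that order. The blood markers, of which CD14 alone reached a mean of 1 FPKM, summed to 5.17 to 6.43 in H460 controls and 0.974 to 1.91 with ISP-I.

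In untreated cells most of these genes stood at different levels in the lines. The control means of A549 were above those of H460 for CLDN1 (4.42-fold), CLDN2 (48.1-fold), CLDN3 (6.22-fold), CLDN4 (3.96-fold), OCLN (53.8-fold), TJP1 (4.13-fold) and F11R (2.73-fold), and the libraries of the lines did not overlap for any of these. The share of all genes without overlap between the untreated lines was not worked out. Since the genes were also chosen with these values known, nothing is read from how many did not overlap. CLDN7 went the other way, at 14.9-fold more in H460. CLDN12 was at 4.14 ± 0.387 FPKM in H460 and 3.82 ± 0.376 in A549 (mean ± SD, n = 3), and the libraries overlapped.

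After ISP-I, 5 of the 9 genes were higher in H460 with no overlap between the groups (CLDN1, CLDN3, CLDN4, CLDN12 and OCLN), 3 were lower (CLDN2, CLDN7 and F11R) and TJP1 overlapped. Over all 13423 genes tested in H460, the groups did not overlap in the higher direction for 29.6% and in the lower direction for 43.1%. In A549, 2 of the 9 were higher (CLDN4 and CLDN12), 6 were lower (CLDN1, CLDN2, CLDN7, OCLN, TJP1 and F11R) and CLDN3 overlapped, against 34.8% higher and 30.7% lower over the 13705 genes tested. All 9 genes passed the filter on low values in H460 (a mean of at least 0.1 FPKM), and 8 did in A549, where CLDN7 did not. Since the genes were chosen with these values known, nothing is read from these counts.

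**Figure D1:**
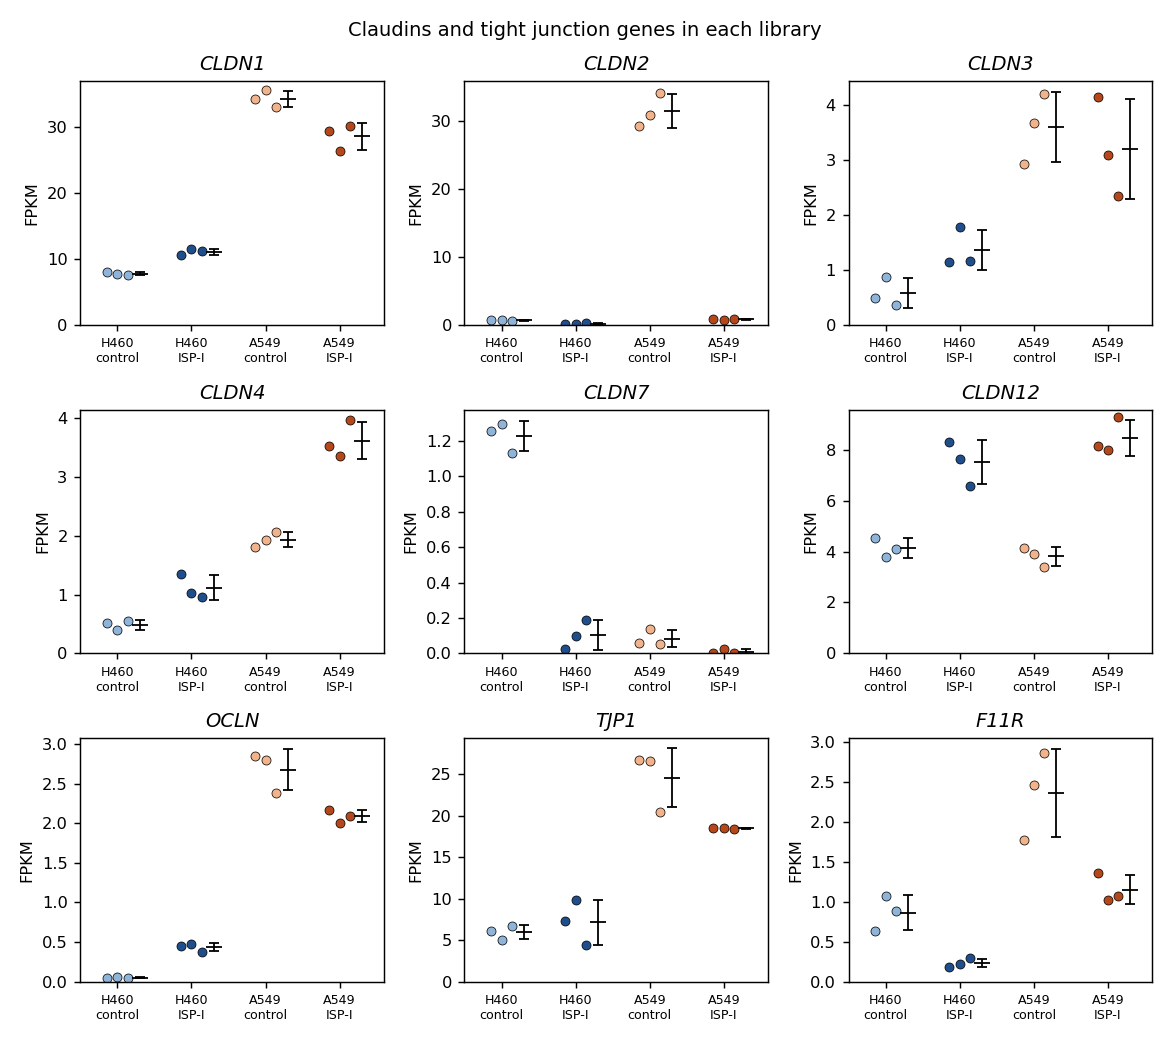
Level of each of the 9 genes in every library. The vertical axis is FPKM from 0, with its own range in each panel, points are libraries (3 per group) and the bar beside them is the mean ± SD. CLDN2 in A549 drops from 31.4 to 0.78 FPKM, and CLDN7 is above 1 FPKM only in H460 controls.

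CLDN2, the cation and water pore, showed the widest range of the 9 genes. Its level in A549 controls was 29.2, 30.8 and 34.1 FPKM, and in A549 with ISP-I it was 0.825, 0.636 and 0.879. Every treated library was far below every control, and the means, 31.4 ± 2.49 and 0.78 ± 0.128 FPKM, stood at a ratio of 40.3 to 1. On the log2(FPKM + 1) scale the difference was -4.19 (SE 0.0903). In H460 the gene began low, at 0.693, 0.676 and 0.590 FPKM in controls, and was at 0.0492, 0.176 and 0.198 after ISP-I. That is 99 against 23 recovered reads, a control level 4.63 times the treated one and a difference of -0.54 (SE 0.0736). Treated A549 cells and untreated H460 cells overlapped in CLDN2.

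CLDN2 lies on chromosome X (hg38, 106900164 to 106930861, plus strand) inside the span of MORC4, which runs on the opposite strand and encodes a chromatin ATPase. MORC4 itself was at 44.8 ± 6.85 FPKM in A549 controls and 10.1 ± 0.51 with ISP-I, and at 12.9 ± 0.523 and 4.23 ± 0.624 in H460. RIPPLY1, also opposite, covers 9.99% of the exonic bases of CLDN2 in GENCODE and was at 0.344 ± 0.113 FPKM in A549 controls, 0.0187 ± 0.0323 in treated A549 cells and 0 in all H460 libraries. The sources do not say whether strand was used in counting, and the part of opposite-strand reads in the CLDN2 values was not tested. The RefSeq promoter table gives CLDN2 a pair of start sites, and the 250 bases before each are shown because this gene had the widest range. The capitals mark the only match to TGANTCA, the letters bound by AP-1 factors, and coordinates are GRCh38.p14, plus strand.
CLDN2 start 1, chrX:106899914-106900163: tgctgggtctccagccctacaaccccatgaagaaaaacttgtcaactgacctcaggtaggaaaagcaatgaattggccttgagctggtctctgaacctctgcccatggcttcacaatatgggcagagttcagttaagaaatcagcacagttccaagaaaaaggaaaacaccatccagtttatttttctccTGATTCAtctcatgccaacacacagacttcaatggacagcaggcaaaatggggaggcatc
CLDN2 start 2, chrX:106918110-106918359: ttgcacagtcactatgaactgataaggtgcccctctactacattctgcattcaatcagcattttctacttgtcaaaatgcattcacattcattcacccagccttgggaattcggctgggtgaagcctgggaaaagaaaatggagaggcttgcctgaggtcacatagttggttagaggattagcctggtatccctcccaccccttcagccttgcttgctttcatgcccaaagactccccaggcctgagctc
These stretches had 46% and 48.8% G and C, against a median of 58% over 35116 promoters of the same length in that table, and 6.57% of those promoters hold TGANTCA.

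CLDN1, a sealing claudin of skin and other barriers, was the most abundant of the 9 genes in both lines. It was at 34.2, 35.5 and 33.0 FPKM in A549 controls and 29.3, 26.3 and 30.1 with ISP-I. In H460 it was at 7.99, 7.68 and 7.55 FPKM in controls and 10.6, 11.5 and 11.1 with ISP-I. The treated libraries thus lay below the controls in A549 and above them in H460, with differences of -0.26 (SE 0.0728) and 0.47 (SE 0.102) on the log2(FPKM + 1) scale. The lines drew closer, from a 4.42-fold to a 2.58-fold ratio of A549 to H460. The gene lies on chromosome 3, from 190305707 to 190322446 on the minus strand.

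CLDN3 and CLDN4, both receptors for the Clostridium perfringens enterotoxin, are neighbours on chromosome 7, with 29271 bases between them and opposite strands. CLDN4 was at 1.81, 1.92 and 2.07 FPKM in A549 controls and 3.53, 3.36 and 3.97 with ISP-I. In H460 it was at 0.517, 0.392 and 0.557 FPKM in controls and 1.36, 1.02 and 0.960 after ISP-I. Treated libraries were above the controls in each line, by 1.87-fold in A549 (0.65 on the log2 scale, SE 0.0845) and 2.28-fold in H460 (0.50, SE 0.0958). CLDN3 was at 0.491, 0.879 and 0.369 FPKM in H460 controls and 1.14, 1.79 and 1.16 with ISP-I, a 2.36-fold ratio that rests on 33 and 86 reads. In A549 its groups overlapped, at 2.92, 3.68 and 4.20 FPKM in controls and 4.15, 3.10 and 2.35 with ISP-I. There the difference was -0.14 (SE 0.167), and it was 0.008 without ISP-I library 3, so its sign hung on 1 library.

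CLDN12, an atypical claudin linked to calcium passage between cells, was the only one of the 9 whose control levels overlapped between the lines. It was at 4.15, 3.90 and 3.41 FPKM in A549 controls and 8.17, 7.99 and 9.30 with ISP-I, 2.22-fold higher (0.98, SE 0.0921). In H460 it was at 4.55, 3.78 and 4.09 FPKM and then 8.30, 7.66 and 6.59, 1.82-fold higher (0.73, SE 0.124). The treated levels of the lines overlapped too. CLDN12 (chromosome 7, 90383721 to 90513402, plus strand) shares 17.6% of its exonic bases in GENCODE with same-strand neighbours. Among these are GTPBP10, at 2.91 ± 0.377 FPKM in A549 controls and 4.63 ± 0.278 with ISP-I, and CDK14, under 0.5 FPKM on average in each group.

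CLDN7, a claudin of many epithelia that is also found along the lateral membrane, was the one member more abundant in H460. It was at 1.26, 1.29 and 1.13 FPKM in H460 controls and 0.0225, 0.0964 and 0.189 with ISP-I, 136 against 12 reads. The control mean was 11.9 times the treated one, and the difference was -1.02 (SE 0.0803) on the log2(FPKM + 1) scale. A549 held hardly any CLDN7 RNA, with 9 reads in the 3 controls and 1 in the 3 treated libraries. The ratio was 0.108 after scaling to depth, on too few reads for a change to be read from it. CLDN7 (chromosome 17, 7259903 to 7263983, minus strand) shares 10.8% of its exonic bases with a same-strand annotated locus that had no reads in any library, and GENCODE lists a pseudogene, CLDN7P1, so reads from near-identical stretches are uncertain.

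Occludin, the first integral membrane protein identified in tight junction strands, had the highest ratio between the untreated lines of the 9 genes. OCLN was at 2.85, 2.80 and 2.38 FPKM in A549 controls and 2.17, 2.01 and 2.09 with ISP-I, a difference of -0.25 (SE 0.0823). In H460 it was at 0.0411, 0.0584 and 0.0496 FPKM in controls and 0.447, 0.480 and 0.379 with ISP-I. The H460 groups stood 8.75-fold apart with no overlap, but on 15 and 146 reads, and the log2(FPKM + 1) difference of 0.45 (SE 0.0572) is small because both levels lie under 1 FPKM. As for CLDN1, treated libraries were above the controls in H460 and below them in A549. OCLN lies on chromosome 5 (69492292 to 69558104, plus strand), and GENCODE lists a pseudogene, OCLNP1, whose reads could not be told apart from OCLN where the sequences match.

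F11R, which encodes JAM-A, an immunoglobulin-type adhesion molecule that helps recruit polarity proteins to the young junction, was lower after ISP-I in each line. It was at 0.632, 1.08 and 0.889 FPKM in H460 controls and 0.188, 0.225 and 0.293 with ISP-I, a control level 3.68 times the treated one (-0.59, SE 0.0971). In A549 it was at 1.78, 2.46 and 2.86 FPKM in controls and 1.36, 1.02 and 1.07 with ISP-I, 2.05 times (-0.64, SE 0.129). No treated library reached its control group in either line. F11R (chromosome 1, 160995211 to 161021343, minus strand) shares 36.6% of its exonic bases with a same-strand annotated locus, AL591806.2, at 0 FPKM in 3 of the 4 groups and 0.0222 ± 0.0384 in A549 controls. How reads on shared bases were assigned is not stated.

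TJP1, the ZO-1 scaffold, was the most abundant of the 9 genes after CLDN1 in treated A549 cells. It was at 26.8, 26.6 and 20.5 FPKM in A549 controls and 18.5, 18.6 and 18.4 with ISP-I, a difference of -0.39 (SE 0.104). In H460 it was at 6.16, 5.01 and 6.69 FPKM in controls and 7.27, 9.84 and 4.43 with ISP-I, and the groups overlapped (0.19, SE 0.236). Without ISP-I library 2 the H460 difference was -0.05. TJP1 is long, 11315 bases, and it was farthest from its group in the libraries in which long genes as a whole departed from theirs. In H460 ISP-I library 2 the median departure from the group mean was 0.12 on the log2 scale for the 2440 genes of at least 8000 bases and -0.23 for the 873 genes of at most 2000 bases, and that of TJP1 was 0.46. In H460 ISP-I library 3 the same values were -0.17, 0.32 and -0.54, and in A549 control library 3 they were -0.09, 0.15 and -0.24. The part of this length trend in the TJP1 difference was not tested. The gene lies on chromosome 15, from 29699367 to 29968915 on the minus strand.

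**Figure D2:**
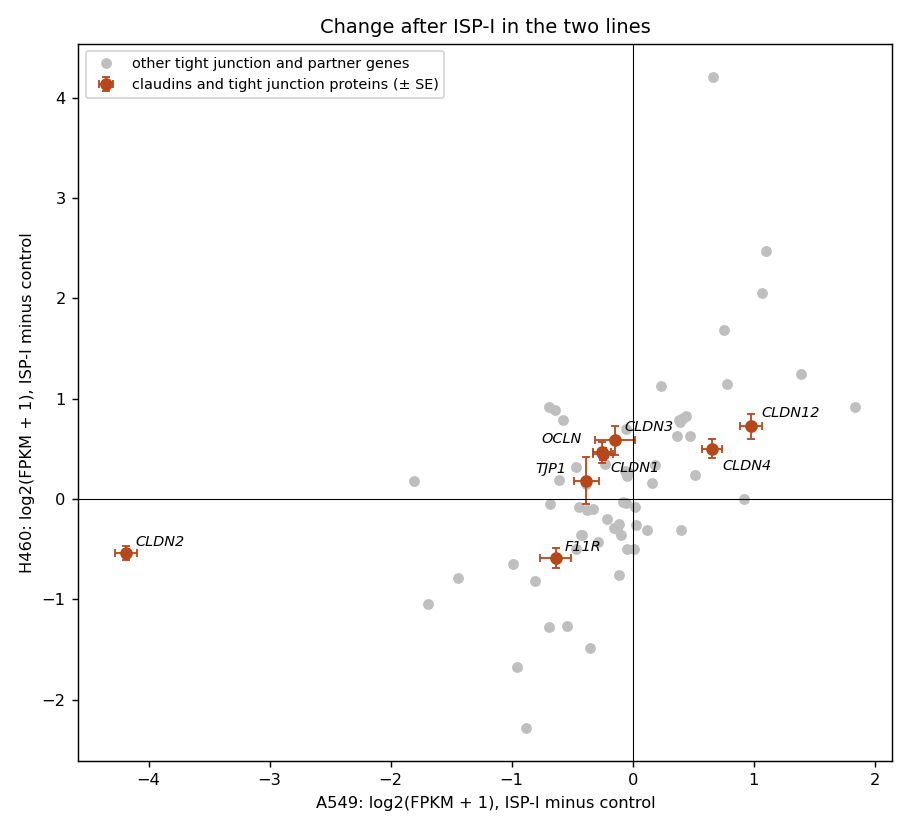
Difference after ISP-I on the log2(FPKM + 1) scale in A549 (horizontal) and H460 (vertical) for 8 of the 9 genes, with bars of ± 1 SE, and for the other tight junction and partner genes tested in both lines (grey). CLDN2 lies far to the left at -4.19 in A549, CLDN4 and CLDN12 are above 0 on both axes, and F11R and CLDN2 are below 0 on both.

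The start regions of the other genes are shown as 30-base windows around matched motifs, chosen after the sequences and the values were seen, since SNAI and ZEB factors, described below, bind CAGGTG. The RefSeq table held 14 start sites of 8 of the 9 genes (none of F11R), and both strands of the 250 bases before each start were searched, so that CACCTG is the same motif read from the other strand. CAGGTG was found before 4 starts of 3 genes, CLDN7, OCLN and TJP1, and 17.5% of all 35116 promoters hold it. The second start of CLDN7 held 4 matches, the most of the 14 stretches, and 0.122% of all promoters reach that number. That stretch had 71.2% G and C, against a median of 58% over all promoters, and the share was not matched for this. Binding of SNAI or ZEB factors to any of these sites was not tested. TGANTCA was found before CLDN4 and the first start of CLDN2. All 250 bases before CLDN7 start 2, OCLN start 1 and CLDN4 start 1 lie in exons that GENCODE gives to the same gene. Before OCLN start 2, 137 of the 250 do. The letters of the motif are in capitals and each window is written on the gene's strand.
CLDN7 start 2, chr17:7262635-7262664, minus strand: tttcttcctcctCACCTGggcaaggagggg
CLDN7 start 2, chr17:7262596-7262625, minus strand: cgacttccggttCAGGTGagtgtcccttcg
CLDN7 start 2, chr17:7262479-7262508, minus strand: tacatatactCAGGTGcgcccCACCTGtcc
OCLN start 1, chr5:69492502-69492531, plus strand: ccatccgagtttCAGGTGaattggtcaccg
OCLN start 2, chr5:69492645-69492674, plus strand: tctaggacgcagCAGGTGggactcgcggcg
TJP1 start 1, chr15:29969120-29969149, minus strand: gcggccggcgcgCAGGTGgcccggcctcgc
CLDN4 start 1, chr7:73830746-73830775, plus strand: ctgggctgTGATTCAgtgtctgtctcccgg
CLDN4 start 1, chr7:73830823-73830852, plus strand: gagactggatagTGACTCAgggacccgggg
No match overlapped another. GTTAAT, part of the site of HNF1 factors, and TATAAA, the TATA box, were matched in none of the 14 stretches, and 6.23% and 10.7% of all promoters hold them. Of the genes with CAGGTG, CLDN7 was lower and OCLN higher in treated H460, and the TJP1 groups overlapped there. In A549 all 3 were lower with no overlap, CLDN7 on 9 and 1 reads.

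Summed over the 24 claudin genes in the table, claudin RNA stood at 89.9 ± 2.20 FPKM in A549 controls and 58.1 ± 3.01 with ISP-I (n = 3), with no overlap. Without CLDN2 the sums were 58.5 ± 0.447 and 57.3 ± 2.88, and they overlapped. In H460 the sum was 27.9 ± 1.08 FPKM in controls and 43.3 ± 1.65 with ISP-I. In A549 controls CLDN1 made up 38.1% of the sum and CLDN2 34.9%. In treated A549 cells CLDN1 made up 49.1%, CLDN12 14.6% and CLDN2 1.34%. H460 had another make-up, with CLDN15, which forms cation pores in the intestine, at 33.0% in controls and 36.1% with ISP-I, ahead of CLDN1 at 27.7% and 25.6%. The number of claudins with a mean of at least 1 FPKM was 5 in H460 controls, 6 in treated H460 cells and 7 in each A549 group.

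**Figure D3:**
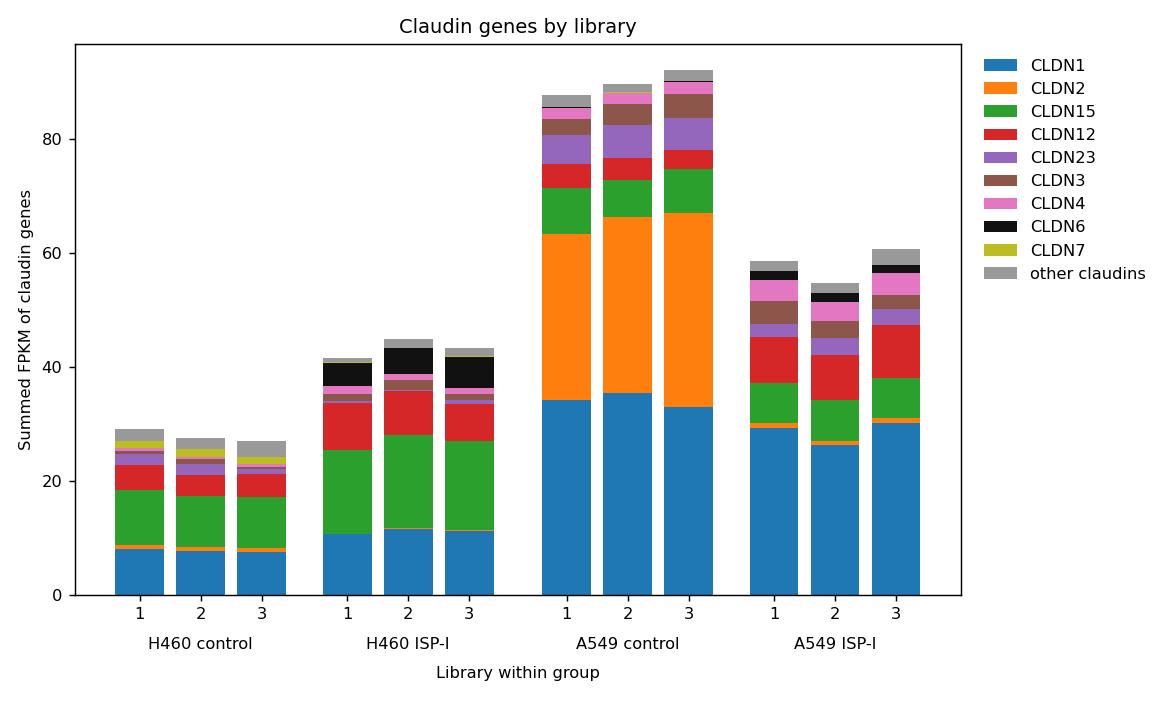
Summed FPKM of the 24 claudin genes in each library, as bars from 0. The claudins named in the legend have separate colours, and the other claudins are pooled in a grey block. The orange CLDN2 block is 34.9% of the sum in A549 controls and 1.34% with ISP-I, while CLDN6 (black) makes up 10.9% in treated H460 cells.

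The genes that work with these 9 were taken from hand-written lists of 97 genes, which were drawn up with earlier results of these data known: other claudins, tricellular and angulin proteins, adhesion molecules, scaffolds, polarity proteins, trafficking and actin regulators, adherens junction partners and transcription factors. They were not chosen by the rule above, so they were tested, with limma on log2(FPKM + 1) and Benjamini-Hochberg adjustment over all genes tested. A gene was called to rise or fall when its difference was over 1 on the log2(FPKM + 1) scale with an adjusted p under 0.05, which takes more than a 2-fold change of FPKM in a gene of low level. Of all genes tested, 25.7% were called in H460 and 7.71% in A549. In H460, 66 of the 97 passed the filter, 7 rose and 6 fell past the call (10.6% and 9.09% of those tested, against 10.5% and 15.2% of all genes). With FPKM scaled by median-of-ratios factors, 13 rose and 5 fell, and over all genes 1954 rose and 1504 fell in place of 1409 and 2047. In A549, 76 passed, 5 rose and 5 fell (6.58% each, against 4.2% and 3.51%). The median difference of the listed genes was -0.04 in H460 and -0.07 in A549, beside -0.15 and 0.02 over all genes. The 115 other genes that the table annotates with the bicellular tight junction term gave 9 higher and 6 lower of 90 tested in H460, and 3 and 2 of 87 in A549. These lists share 57 genes, 58.8% of the first and 49.6% of the second.

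Among the 18 other claudins, CLDN6, a claudin of embryonic epithelium, was higher after ISP-I in both lines. It was at 0, 0.0379 and 0.0386 FPKM in H460 controls, 2 reads in all, and at 4.18, 4.49 and 5.46 with ISP-I, 401 reads (2.47, SE 0.107). CLDN6 passed the filter in H460 through the treated libraries alone, so this difference is given as a description. In A549 it went from 0.243, 0.0391 and 0.156 FPKM to 1.58, 1.43 and 1.36 (1.10, SE 0.0818, limma adjusted p 1.63e-05). The change in H460 minus that in A549 was 1.37 (SE 0.129), which is likewise a description. CLDN15, named after its values were seen because it led the sum in H460, was at 9.22 ± 0.364 and 15.6 ± 0.821 FPKM there (0.70, SE 0.104, adjusted p 0.000383), under the threshold of 1, and at 7.45 ± 0.793 and 7.09 ± 0.0998 in A549.

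Of the adherens junction partners, CDH1 fell in A549, from 4.77, 5.18 and 4.75 FPKM to 0.911, 0.752 and 0.605 (-1.75, SE 0.0892, limma adjusted p 2.74e-06). In H460 it had 0 reads in controls and 5 with ISP-I. JUP, plakoglobin, fell in A549 from 22.0 ± 1.82 to 5.54 ± 0.331 FPKM (-1.81, SE 0.0826, adjusted p 1.61e-06), while in H460 it was at 27.2 ± 2.95 and 30.9 ± 3.71 (0.18, SE 0.134, adjusted p 0.258). The change of JUP differed between the lines by 1.99 (SE 0.152, adjusted p 7.39e-07). The nectins, immunoglobulin-type adhesion molecules, were split. NECTIN2 fell in both lines (-1.05 in H460 with adjusted p 9.33e-05, -1.69 in A549 with adjusted p 3.37e-06). The H460 call was lost without control library 2 (-0.96) or ISP-I library 2 (-0.99), and with median-of-ratios (-0.80) or quantile scaling (-0.90). NECTIN1 fell in H460 (-1.68, adjusted p 4.24e-06) and was not called in A549 (-0.96, although mean FPKM was 2.38 times lower), and NECTIN4 rose in A549, from 0.219 ± 0.040 to 2.45 ± 0.203 FPKM (1.5, SE 0.0734, adjusted p 2.18e-06).

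Among adhesion molecules related to F11R, JAM3 fell in H460 from 4.31 ± 0.235 to 1.21 ± 0.165 FPKM (-1.26, SE 0.107, adjusted p 1.39e-05) and CLMP rose in A549 from 2.11 ± 0.130 to 10.1 ± 0.418 (1.84, SE 0.0758, adjusted p 1.05e-06). JAM3 was at 0.992 ± 0.0698 and 0.365 ± 0.0144 FPKM in A549 (-0.54), and CLMP at 1.88 ± 0.452 and 4.40 ± 0.396 in H460 (0.91). Both were under 1 on the log2(FPKM + 1) scale and so not called, while mean FPKM differed 2.72-fold and 2.33-fold. Of the polarity genes, PARD6B, a partner of atypical PKC, rose in both lines, by 1.25 (SE 0.114) in H460 and 1.39 (SE 0.0803) in A549, with adjusted p of 2.13e-05 and 4.71e-06. LLGL1, SCRIB and LLGL2, which mark the basolateral side, were lower. LLGL1 fell in H460 from 8.90 ± 0.852 to 1.04 ± 0.184 FPKM (-2.28, SE 0.121, adjusted p 1.4e-06). SCRIB fell there by 1.49 (SE 0.120, adjusted p 1.1e-05), and LLGL2 fell in A549 by 1.44 (SE 0.0843, adjusted p 5.09e-06). Each was also lower with no overlap in the other line, under the threshold. These differences were -0.89 for LLGL1 and -0.36 for SCRIB in A549, and -0.78 for LLGL2 in H460. Control means there were 2.02, 1.29 and 2.90 times the treated ones.

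The scaffold AMOTL2, of the angiomotin family, rose in H460 from 10.7 ± 1.78 to 24.9 ± 2.58 FPKM (1.15, SE 0.146, adjusted p 0.000154), and was at 22.2 ± 0.254 and 38.8 ± 2.18 in A549 (0.78). ARHGEF11, an exchange factor that binds ZO-1, fell in H460 from 13.0 ± 0.793 to 4.82 ± 0.717 (-1.28, SE 0.127, adjusted p 3.58e-05). MICALL2, which takes part in the recycling of occludin and claudins to the junction, was at 6.65 ± 0.669 and 13.1 ± 0.800 FPKM in H460 (0.88) and 4.99 ± 0.443 and 2.83 ± 0.301 in A549 (-0.65). Neither was called (with median-of-ratios scaling the H460 difference was, at 1.14), but the changes differed between the lines by 1.53 (SE 0.137, adjusted p 2.51e-06).

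SNAI2, a repressor of E-cadherin and other epithelial genes, was at 1.67, 1.61 and 1.96 FPKM in H460 controls and 47.7, 50.6 and 51.0 with ISP-I (4.21, SE 0.108, limma adjusted p 8.26e-08). Its difference in A549, from 0.529 ± 0.133 to 1.43 ± 0.333 FPKM, was 0.66 (SE 0.115), and the lines differed by 3.55 (SE 0.155, adjusted p 1.13e-08). SNAI1, a repressor of the same family, rose in H460 from 12.6 ± 0.846 to 42.9 ± 4.98 FPKM (1.69, SE 0.125, adjusted p 7.06e-06). In A549 SNAI1 was not called (0.76), although its mean was 2.20-fold higher with no overlap, at 1.36 and 2.98 FPKM. ZEB1, another repressor of epithelial genes, rose in both lines, by 2.05 (SE 0.347, adjusted p 0.000808) in H460 and 1.07 (SE 0.193, adjusted p 0.0018) in A549, and its treated H460 libraries spread from 5.45 to 18.1 FPKM, with library 2 the highest as for TJP1. The A549 call was lost without control library 3 (0.82). Of the 17 listed transcription factors, 6 passed the filter in H460 and 4 rose, ZEB2 being the other, where 10.5% of all genes rose. GRHL1, on the same list, was also higher there, at 0.128 and 0.739 FPKM on average. Its difference (0.62, limma adjusted p 6.31e-05) was under the threshold. As the list was drawn up with earlier results known, nothing is read from this count. ELF3, an epithelial activator, fell in A549 from 13.4 ± 1.12 to 4.89 ± 0.188 FPKM (-1.29, SE 0.0805, adjusted p 7.04e-06) and was at most 0.125 FPKM in any H460 library.

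**Figure D4:**
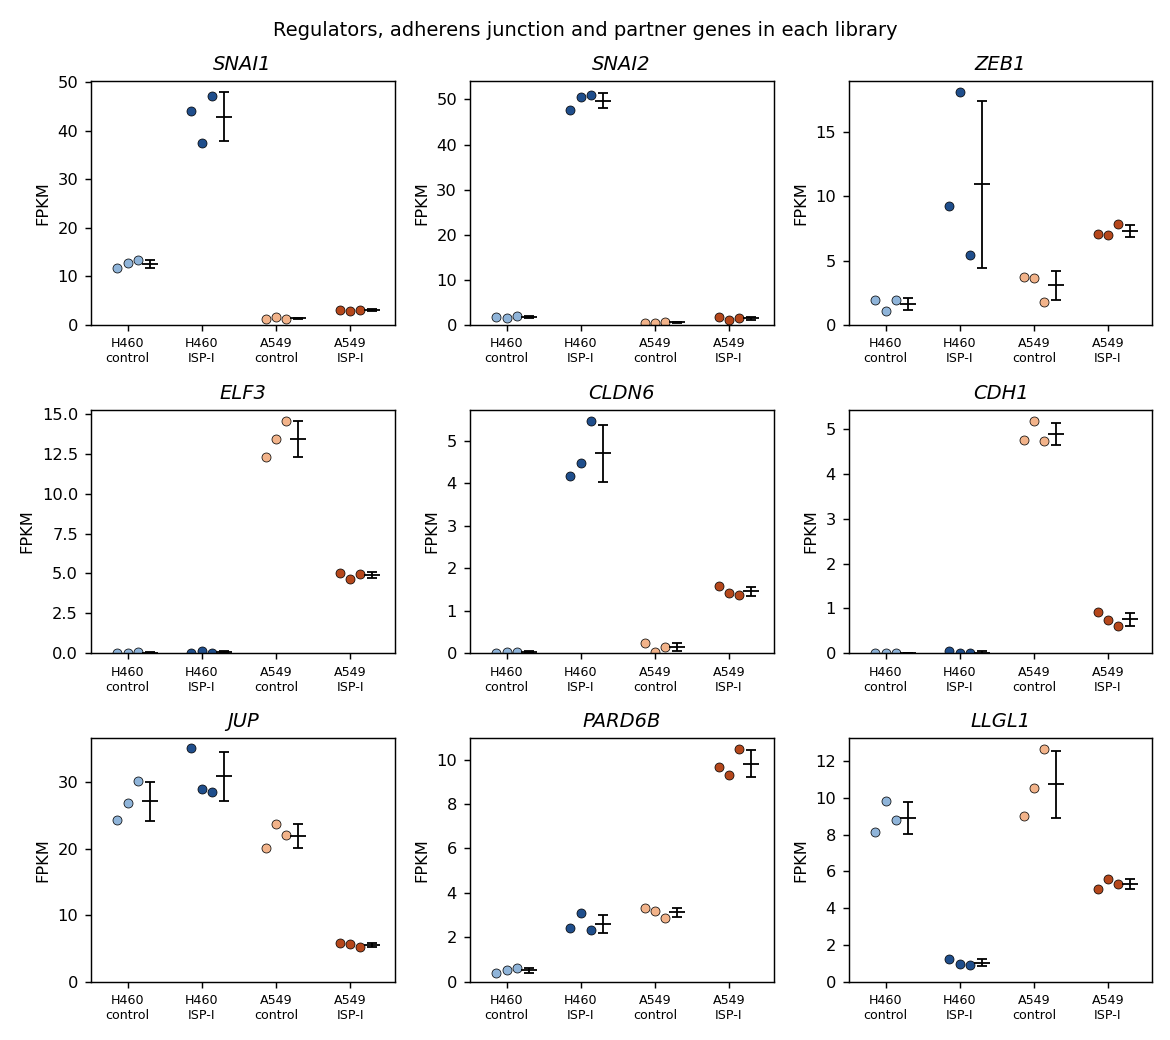
FPKM in every library of 9 genes tested beside the members, with points for libraries and bars for the mean ± SD (n = 3), each panel with its own axis from 0. SNAI2 in treated H460 cells reaches 47.7 to 51.0 FPKM, and CDH1, JUP and ELF3 are lower in treated A549 cells.

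Between the untreated lines, 4 of 78 listed genes tested were higher in H460 and 17 were lower (5.13% and 21.8%, against 5.47% and 8.5% of all genes). Lower in H460 was LLGL2 (-1.95, SE 0.0863, limma adjusted p 1.02e-09). The 17 also hold CDH1 (-2.56) and ELF3 (-3.79), at 0 and 0.0437 FPKM on average in H460 controls. These and others of the 17 passed the filter through A549 alone. No difference between the lines is therefore read from them or from the count of 17. The 4 higher in H460 were ARHGEF2 (2.70, adjusted p 5.31e-10), SNAI1 (2.53, adjusted p 2.77e-10), JAM3 (1.41, adjusted p 4.63e-09) and ZEB2 (1.05). ZEB2 was at 0.0456 FPKM on average in A549 controls, under the level of the filter, and at 1.17 in H460 controls. Its difference is therefore given as a description. TWIST1, like SNAI1 a factor of mesenchymal cells, had 0 reads in H460 controls and was at 2.10 FPKM on average in A549 controls. It too passed the filter through A549 alone, and its difference (-1.63) is given as a description. For the difference between the lines in the change after ISP-I, 8 of 78 tested genes were called higher and 3 lower. These were 10.3% and 3.85%, against 5.93% and 10.1% of all genes (16% in either direction). With median-of-ratios scaling they were 12 and 2, and the calls over all 13953 genes turned from 827 and 1407 to 1298 and 825. Among the 8 were CDH1 and ELF3, and among the 3 was NECTIN4. All of these passed the filter through A549 alone, so nothing is read from the counts.

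The genes whose levels ran most like those of CLDN1 and CLDN2, the only members whose group means spanned more than 2 on the log2(FPKM + 1) scale, were found over all 12 libraries. The points share libraries and fall into 4 groups, so the coefficients only describe the pattern. For CLDN1 the nearest were OCLN (Pearson r 0.998), ARSI (0.995) and ABCC3 (0.994), all higher in A549 than in H460. For CLDN2 they were GAL3ST1 (0.990), SUSD2 (0.989) and AXIN2 (0.989). AXIN2, a feedback inhibitor of Wnt signalling, was at 3.6 ± 0.314 FPKM in A549 controls, 0.210 ± 0.0497 in treated A549 cells, 0.395 ± 0.0719 in H460 controls and 0.156 ± 0.0884 in treated H460 cells.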

How the data were processed

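RNA of H460 and A549 cells was extracted and sequenced as paired 150-base reads by the authors, who filtered with FastQC, mapped to hg38 with HISAT2, counted with HTSeq 0.9.1 and deposited FPKM per gene. The annotation version and strand setting are not given in the sources used here. The deposited gene length is another unit, bases. Multiplied by gene length, 100% of the values of each library came out as whole reads (tolerance 0.05), and these recovered reads served for depth, read counts and limma voom. The table's columns name line, treatment and a running number that matches no replicate number of the labels.

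The members and gene lists were chosen with earlier results of these data known. For each line, log2(FPKM + 1) entered a limma fit (3.58.1 in R 4.3.3) that let the variance follow the mean level. Genes averaging 0.1 FPKM or more were tested, with Benjamini-Hochberg adjustment. The fit of all 12 libraries gave the interaction and the comparison of untreated lines. Calls needed a difference over 1 and an adjusted p under 0.05. SE is that of limma. A pseudocount of 1 draws differences of genes near or under 1 FPKM toward 0, so ratios of mean FPKM are given beside them.

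Other genes were named by rule: per list and line up to 3 called genes with the largest difference, and up to 6 with the smallest p for the interaction, with a mean of at least 1 FPKM in a group. CLDN15, ZEB2, GRHL1, ARHGEF2 and TWIST1 were added after their values were seen. Per member spanning over 2, the 3 genes most alike were named. The fit was tested on simulated data. Of the table's lines, 4 annotation fragments were left out, and 1924 genes had no reads. Promoter windows are from RefSeq. Alternatives were a pseudocount of 0.1, other filters, quantile and median-of-ratios scaling, limma voom, all libraries fitted together, and omission of each library in turn. Python 3.11.15, pandas 2.3.3 and scipy 1.17.1 were used.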

Additional observations from a re-analysis of the deposited data

Results flagged for a closer look

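CLDN1 and OCLN moved in opposite directions in the lines. All treated libraries lay above the controls in H460, by 0.47 for CLDN1 and 0.45 for OCLN on the log2(FPKM + 1) scale, and below them in A549, by -0.26 and -0.25. The difference between the lines was not tested for these genes, because they were chosen with their values known.

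For SNAI2, JUP, MICALL2, SCRIB and LLGL1 the change after ISP-I differed between the lines in the test of the interaction (limma, Benjamini-Hochberg). The change in H460 minus that in A549 was 3.55 for SNAI2, 1.99 for JUP, 1.53 for MICALL2, 1.37 for CLDN6, -1.13 for SCRIB and -1.40 for LLGL1. The call of SCRIB was lost with median-of-ratios scaling (-0.84) and quantile normalization (-0.94). CDH1 (1.77), ELF3 (1.32) and NECTIN4 (-1.36) also passed that test, but they were under 0.2 FPKM in every H460 library and entered it through A549 alone, so no difference between the lines is read from them. None is read from CLDN6 (1.37) either, which had 2 reads in H460 controls and entered the test through other groups. NECTIN4 was 6.32-fold higher in H460 and 11.2-fold higher in A549 as a ratio of mean FPKM, and with limma voom its interaction had an adjusted p of 0.465.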

How the results depend on the processing

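No paired analysis was possible because the numbers of the columns match no replicate numbers of the labels, so the fit with a replicate block was not run. Median-of-ratios factors moved the median difference of all genes in H460 from -0.15 to 0.01 and for the difference between lines from -0.16 to 0.02, and differences in H460 are to be read against that shift. For the listed partner genes, a pseudocount of 0.1 and limma voom, which draw low genes less toward 0, gave more calls, as over all genes (2322 higher and 3464 lower, and 2375 and 3651, in H460). Of the listed genes in H460, 14 and 18 were higher (13 with median-of-ratios scaling) and 15 and 15 lower. In A549, 11 and 12 were higher and 10 and 12 lower. For the difference between lines, 15 were higher with limma voom, and 9 and 8 lower. Between untreated lines, 8 and 12 were higher and 31 and 31 lower. When single libraries were left out, calls in H460 numbered 6 to 8 in the higher and 5 to 7 in the lower direction, with 5 higher and 5 to 6 lower in A549, 8 to 11 and 3 to 4 for the difference between lines, and 4 and 18 to 19 between untreated lines. Signs turned for CLDN3 in A549 (0.008 without ISP-I library 3, range from -0.302) and TJP1 in H460 (-0.0466 without ISP-I library 2, range to 0.453). They also turned for the difference between lines of PARD6B (0.524 with pseudocount 0.1, 0.0067 with quantile normalization, 0.088 with median-of-ratios and 0.687 with limma voom), and between untreated lines for CLMP (0.0457 with quantile normalization, 0.0007 without H460 control library 2, range from -0.228) and NECTIN1 (0.0464 with quantile normalization). Genes with few reads, such as CLDN7 in A549 and OCLN in untreated H460, are limited by depth.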

Other observations

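CTNND1, looked up after its values were seen, encodes p120 catenin, which epithelial cells as a rule carry. It was at 0.109 to 0.675 FPKM in the 12 libraries. In GENCODE, 39.1% of its exonic bases are shared with same-strand annotated loci, which were themselves at 0.194 FPKM or less. Among the 9 members F11R had the largest such share, 36.6%, and CLDN12 and CLDN7 had 17.6% and 10.8%. The part of shared bases in any of these levels was not tested.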
